A study of Rattus norvegicus with 6 samples.

Results

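The immediate early genes Fos, Fosb, Jun, Junb, Egr1, Egr2, Atf3, Arc, Btg2 and Myc were examined in GH3 cells with and without thyrotropin-releasing hormone (TRH). They were taken from the deposited gene table by a fixed list of rat Ensembl identifiers, and 10 of 10 were present among its 18413 genes. In the order above the identifiers are ENSRNOG00000008015, ENSRNOG00000046667, ENSRNOG00000026293, ENSRNOG00000042838, ENSRNOG00000019422, ENSRNOG00000000640, ENSRNOG00000003745, ENSRNOG00000043465, ENSRNOG00000003300 and ENSRNOG00000004500. GH3 is a single rat pituitary tumour line, a source of growth hormone and prolactin. All 6 libraries came from it, labelled wild type and grown in F10 medium with horse and fetal bovine serum. Of these, 3 were controls (treatment label NC, no vehicle named) and 3 came from cells given TRH at 100 nM for a time the labels do not state. The question put to the 2 groups was which messenger RNAs differ after the hormone.

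TRH is a hypothalamic peptide whose receptor on pituitary cells couples through Gq to phospholipase C, calcium release, protein kinase C and the ERK kinases. Immediate early genes are the genes that such signals switch on without new protein synthesis, usually as a short burst of transcription that soon decays. Fos and Jun proteins pair through leucine zippers to form the transcription factor AP-1, and EGR proteins are zinc finger factors that bind GC-rich sites. Serum response factor acts on many of these genes through the CArG box, and CREB through the cyclic AMP response element (CRE).

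To show the sites through which these kinases are known to act, the 250 bases upstream of the start site were read from RefSeq promoter windows (assembly GRCr8) for the members the table held, 5 of 10: Fosb, Junb, Egr1, Egr2 and Btg2. The windows of Egr1, Egr2 and Btg2 are printed here because they held a CArG box or a complete CRE. Each runs 5′ to 3′ on its gene's strand, and capitals mark a CArG box, the CRE (TGACGTCA), the short CRE motif TGACG on either strand, or the EGR site GCGNGGGCG.
Egr1 (GRCr8 chr18:26736828-26737077, plus strand): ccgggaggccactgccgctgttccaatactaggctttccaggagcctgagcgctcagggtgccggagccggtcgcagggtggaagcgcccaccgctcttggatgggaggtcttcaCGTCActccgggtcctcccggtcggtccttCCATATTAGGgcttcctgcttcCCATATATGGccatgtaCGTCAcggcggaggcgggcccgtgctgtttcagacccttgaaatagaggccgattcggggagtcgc
Egr2 (GRCr8 chr20:21054442-21054691, minus strand): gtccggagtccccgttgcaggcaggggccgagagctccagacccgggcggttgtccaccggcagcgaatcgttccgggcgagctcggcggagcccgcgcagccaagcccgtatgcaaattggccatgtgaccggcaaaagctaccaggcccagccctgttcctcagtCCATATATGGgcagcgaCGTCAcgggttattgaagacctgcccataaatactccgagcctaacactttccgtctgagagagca
Btg2 (GRCr8 chr13:48087691-48087940, minus strand): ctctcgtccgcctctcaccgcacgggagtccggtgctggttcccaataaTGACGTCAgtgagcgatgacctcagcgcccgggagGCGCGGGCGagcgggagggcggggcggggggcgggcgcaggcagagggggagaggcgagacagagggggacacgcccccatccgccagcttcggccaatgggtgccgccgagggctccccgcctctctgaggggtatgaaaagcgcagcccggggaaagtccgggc
The Egr1 and Egr2 windows each held a CArG box from 83 to 74 bases upstream of the start and a short CRE motif from 66 to 62 bases upstream. Egr1 held a further CArG box, from 105 to 96 bases upstream, and a further short CRE motif from 135 to 131 bases upstream. Among all 33469 windows of this length, 1.5% held a CArG box and 18.2% a short CRE motif. Btg2 held the complete CRE from 201 to 194 bases upstream, which contains the short motif on both strands, and 1.59% of all windows held a complete CRE. Btg2 also held an EGR site from 166 to 158 bases upstream, found in 4.29% of all windows. Junb held a short CRE motif from 155 to 151 bases upstream and a TATAAA motif from 49 to 44 bases upstream. Fosb held TATAAA alone, on the other strand, from 180 to 175 bases upstream, and 12.9% of all windows held TATAAA on either strand. The pattern TGANTCA, which takes in the AP-1 site and allows any base at N, was found in 0 of the 5 member windows. It was found in 6.34% of all windows. A match, or the lack of one, describes letters in the window only. For each member the first listed window was read, whereas the shares count every window.

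Control libraries held 43504159 to 46320376 counts and TRH libraries 45027093 to 52134239. Control replicate 1 and TRH replicate 3 stood apart from the rest. They lay at -43.2 and 39.5 on the first principal component of log2 CPM (read counts scaled to a common library size), and the other 4 libraries between -8.72 and 12.9. In control replicate 1 the longest 1 in 5 genes (3866 bases or more) exceeded the shortest 1 in 5 (1176 bases or less) by 0.37 on the log2 scale, relative to the mean of the 6 libraries. In TRH replicate 3 this difference was -0.44. The median log2 fold change with TRH was 0.12 in the shortest 1 in 5 genes and -0.11 in the longest. Members were 1589 (Fos) to 3741 (Fosb) bases long by the deposited lengths.

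None of the 10 immediate early genes passed the test for a difference after TRH. All 10 passed the filter on low counts. Of them, 0 had an edgeR adjusted p under 0.05, against 0% of the 14050 genes tested, where the smallest adjusted p was 0.395. As an alternative, DESeq2 called 0 of the members and 106 genes in all. These were 0.835% of the 12698 genes to which it gave an adjusted p, and Egr2 was given none. In edgeR, 1 of the 10 members, Myc, had an unadjusted p under 0.05, beside 8.99% of all genes tested (2.04% higher and 6.95% lower with TRH). The fitted log2 fold change (TRH over control) was above 0 for 5 members and below 0 for 5, with a median of -0.014 against -0.004 for all genes tested. Its median size regardless of sign was 0.12 among members and 0.16 among all genes tested. With control replicate 1 and TRH replicate 3 left out together, 0 members were called and the members' log2 fold changes ran from -0.30 for Myc to 0.24 for Arc. In bulk RNA, fewer cells making a transcript and less of it per cell cannot be told apart.

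**Figure D1:**
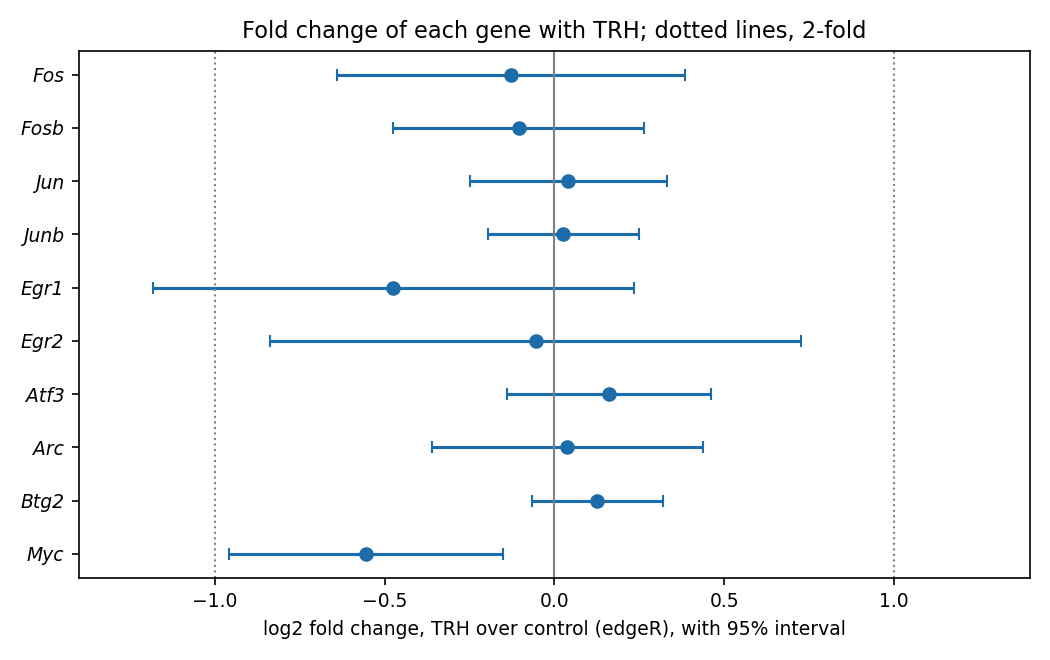
Log2 fold change of each immediate early gene with TRH (x axis, edgeR, TRH over control) as a point with its unadjusted 95% interval (bar), 3 libraries per group. The dotted lines mark 2-fold in either direction: the Egr1 interval alone crosses one of them, and the Myc interval alone lies wholly below 0.

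The intervals bound the size of a rise that these libraries leave room for. Gene by gene and not adjusted for the number of genes, the 95% interval lay within 2-fold in either direction for 9 of 10 members, beside 82.0% of all genes tested. It lay within 1.5-fold for 6 of 10, beside 54.6%. The upper bound was highest for Egr2, a 1.66-fold rise, and next for Atf3, a 1.38-fold rise. For Egr1 the upper bound was a 1.18-fold rise, and for Fos it was 1.31-fold. Without control replicate 1 the upper bounds were 1.39-fold for Egr1, 1.49-fold for Fos and 1.91-fold for Egr2. With TRH replicate 3 left out as well they were 1.48-fold, 1.51-fold and 2.17-fold for Egr1, Fos and Egr2. The upper bound for Arc was 1.355-fold with all libraries and 1.49-fold without control replicate 1. It was 1.57-fold with TRH replicate 3 left out as well. Bounds with any other library left out are not given here. The bounds given hold for the time or times of sampling after TRH, which the labels do not state.

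The Fos family, whose products need a Jun partner to bind DNA well, overlapped between the groups. Fos was at 8.001, 5.75 and 6.39 CPM in control replicates 1, 2 and 3 and at 7.54, 4.51 and 6.37 CPM in TRH replicates 1, 2 and 3. The highest control and the highest TRH library were both replicate 1, and TRH replicate 2 was the lowest of all. The mean CPM was 6.71 ± 1.16 for controls against 6.14 ± 1.53 after TRH (SD, n = 3 each). Fos had a log2 fold change of -0.13 (SE 0.22, edgeR adjusted p = 0.850), and of 0.017 without control replicate 1 and 0.0515 without TRH replicate 2. Fosb, a close relative of Fos, was at 23.1, 17.3 and 16.9 CPM in controls and at 20.01, 15.8 and 17.4 CPM with TRH. Control replicate 1 was again the highest and TRH replicate 2 the lowest. For Fosb the log2 fold change was -0.10 (SE 0.16, edgeR adjusted p = 0.829), and 0.055 without control replicate 1.

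The Jun family, which supplies the partners of Fos proteins and can also form AP-1 without them, varied less. Jun ran from 27.9 to 30.3 CPM in controls and from 27.2 to 35.3 CPM with TRH, and the highest value was TRH replicate 1. Its log2 fold change was 0.042 (SE 0.13, edgeR adjusted p = 0.920), and it was -0.063 without TRH replicate 1. Junb ran from 55.8 to 63.7 CPM in controls and from 57.1 to 61.8 CPM with TRH, so the TRH values lay inside the control range. Its log2 fold change was 0.026 (SE 0.097, edgeR adjusted p = 0.937). For both genes the sign turned on the TPM scale (transcript abundance scaled by gene length and library total), where limma on log2(TPM + 1) gave -0.032 for Jun and -0.0395 for Junb. The 4 AP-1 transcripts summed to 85.7 ± 9.49 TPM (controls) and 82.0 ± 8.14 TPM (TRH; SD, n = 3 each). Junb made up 61.7% to 66.8% of that sum in the 6 libraries. Atf3, a stress-inducible leucine zipper factor of the ATF family, was at 26.0, 33.7 and 32.6 CPM in controls and at 32.4, 33.1 and 37.8 CPM with TRH. Control replicate 1, the highest library for Fos, Fosb and Junb, was the lowest for Atf3. Atf3 had a log2 fold change of 0.16 (SE 0.13, edgeR adjusted p = 0.682), and of 0.054 without control replicate 1.

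**Figure D2:**
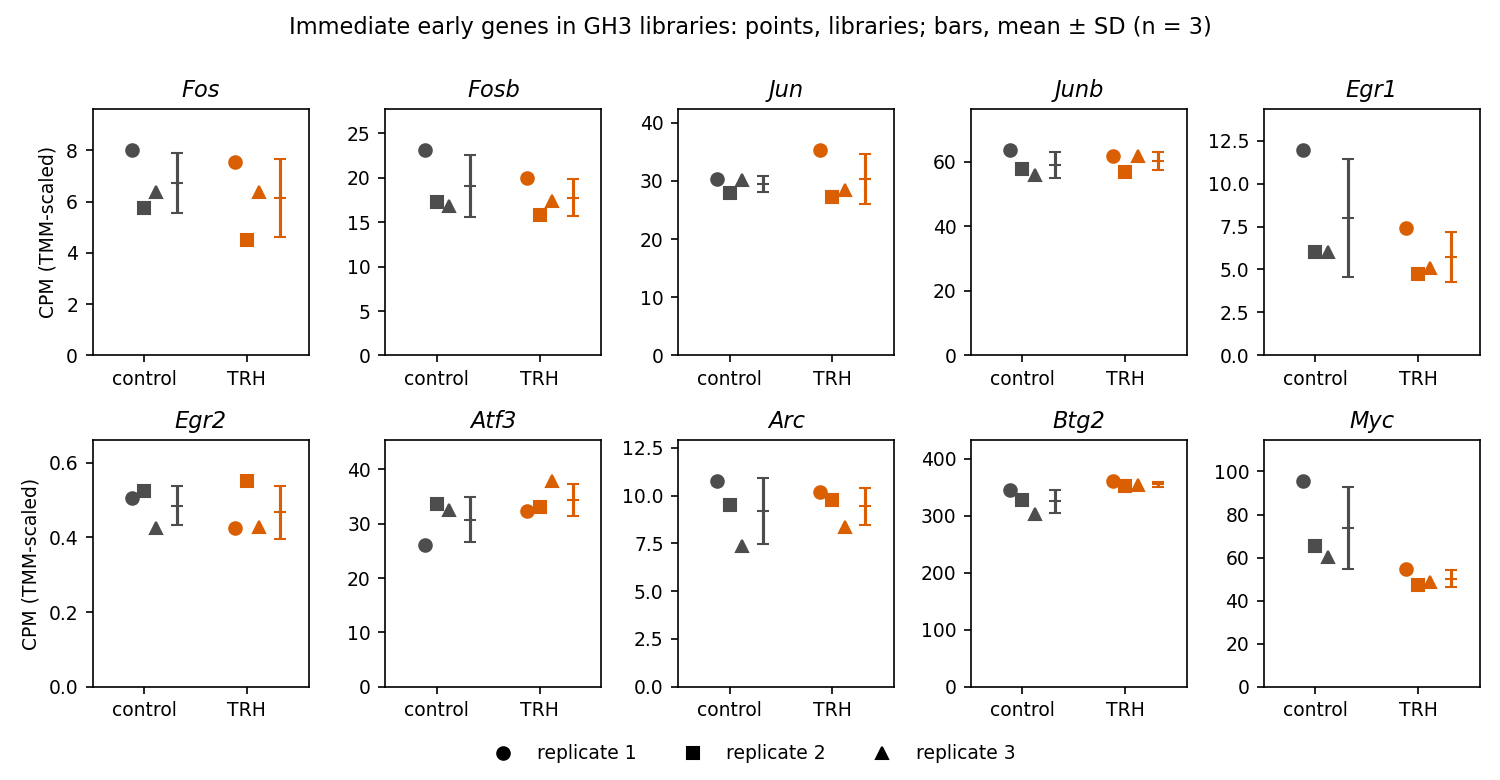
Level of each immediate early gene (y axis, CPM with TMM scaling, from 0) in the 3 control (grey) and 3 TRH (orange) libraries. Points are libraries with the replicate number as the marker shape, and bars beside them are mean ± SD (n = 3). Groups overlap for Fos, Fosb, Jun, Junb, Egr1, Egr2, Atf3 and Arc, whereas for Myc all TRH points lie under the controls and for Btg2 all lie above.

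Egr1, the zinc finger factor also known as Krox-24 or NGFI-A, spread most between libraries of the same group. Its level was 11.9, 6.02 and 6.004 CPM in control replicates 1, 2 and 3 and 7.40, 4.73 and 5.08 CPM in TRH replicates 1, 2 and 3. The control mean of 7.99 ± 3.43 CPM rests on control replicate 1, since the other controls lay under TRH replicate 1. The TRH mean was 5.74 ± 1.45 CPM (SD, n = 3 each). For Egr1 the log2 fold change was -0.47 (SE 0.31, edgeR adjusted p = 0.642), with a 95% interval from -1.18 to 0.23. Without control replicate 1 it was -0.064, and with TRH replicate 3 left out as well it was 0.0165. The within-group SD of Egr1 on the log2 CPM scale was 0.47, larger than that of 87.8% of genes tested. Egr2 (Krox20), a related zinc finger factor, was near the limit of counting, with 22, 24 and 20 reads in controls and 22, 25 and 19 reads with TRH. The 95% Poisson interval, which covers counting error only, was 11.4 to 29.7 for the 19 reads of TRH replicate 3 and 16.2 to 36.9 for the 25 reads of TRH replicate 2. All 6 libraries thus overlapped within counting error. Egr2 had a log2 fold change of -0.054 (SE 0.34, edgeR adjusted p = 0.969).

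Myc, a helix-loop-helix leucine zipper factor that drives growth and division, had the lowest p of the members and lower values in all 3 TRH libraries. Its level was 95.4, 65.5 and 60.1 CPM in control replicates 1, 2 and 3, and 54.7, 47.1 and 48.6 CPM in TRH replicates 1, 2 and 3. The groups did not overlap, as in 10.2% of all genes tested in this direction and 6.80% in the other. The mean CPM was 73.7 ± 19 for controls against 50.2 ± 4.04 after TRH (SD, n = 3 each). The log2 fold change of Myc was -0.55 (SE 0.18, with a 95% interval from -0.96 to -0.15), a level 0.681 times that of controls. The edgeR p was 0.0131 unadjusted and 0.435 adjusted over all genes, and 6.95% of genes tested had an unadjusted p under 0.05 in this direction. Without control replicate 1, the highest library, the log2 fold change was -0.32 (edgeR unadjusted p = 0.0179, adjusted p = 0.795). With TRH replicate 3 left out as well it was -0.30 (edgeR unadjusted p = 0.0271, adjusted p = 0.659), and with offsets for gene length it was -0.50 (edgeR unadjusted p = 0.0111, adjusted p = 0.415). In DESeq2, Myc had an adjusted p of 0.153. Shares of all genes at an unadjusted p under 0.05 in the alternative fits are not given here.

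Btg2, an antiproliferative protein that recruits the CCR4-NOT deadenylase to messenger RNAs, had the smallest spread within groups of the members, while Junb had the smallest ratio of highest to lowest library (1.14, against 1.19 for Btg2). It was at 345, 328 and 304 CPM in controls and at 361, 352.5 and 354 CPM with TRH. The 3 TRH values lay above the 3 controls, as in 6.80% of all genes tested, but on the TPM scale the groups overlapped, at 198 to 229 TPM in controls and 201 to 229 TPM with TRH. Btg2 had a log2 fold change of 0.13 (SE 0.084, edgeR adjusted p = 0.645), with a 95% interval from -0.065 to 0.32. The within-group SD of Btg2 was 0.066 on the log2 CPM scale, and 5.86% of genes tested had a smaller one. Arc, best known as a synaptic protein induced by neuronal activity, was at 10.7, 9.51 and 7.35 CPM in controls and at 10.2, 9.77 and 8.37 CPM with TRH. Replicate 3 was the lowest in both groups. Arc had a log2 fold change of 0.038 (SE 0.17, edgeR adjusted p = 0.954), and of -0.015 by limma on log2(TPM + 1).

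Compared per length, the members spanned a wide range of levels in these cells. Mean TPM over the 6 libraries was 214 ± 15.3 for Btg2, 53.8 ± 3.94 for Junb, 37.3 ± 12.2 for Myc, 17.9 ± 1.39 for Atf3 and 15.6 ± 1.94 for Jun (SD, n = 6). It was 7.94 ± 1.42 TPM for Fosb, 6.52 ± 1.44 for Fos, 4.97 ± 0.805 for Arc, 3.56 ± 1.53 for Egr1 and 0.237 ± 0.0337 for Egr2 (SD, n = 6). Btg2 thus exceeded 95.6% of the genes in the table, Fos 48.5% and Egr2 19.7%. These shares are over all 18413 genes, of which 16073 to 16346 had a count in a given library. The ranges over the 6 libraries did not overlap between Btg2 and Junb, Myc and Atf3, Jun and Fosb, or Egr1 and Egr2. Junb and Myc, Atf3 and Jun, Fosb and Fos, Fos and Arc, and Arc and Egr1 had overlapping ranges. Within libraries, Junb was above Myc and Fosb above Fos in 6 of 6, Fos above Arc and Arc above Egr1 in 5 of 6 each, and Atf3 above Jun in 4 of 6.

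**Figure D3:**
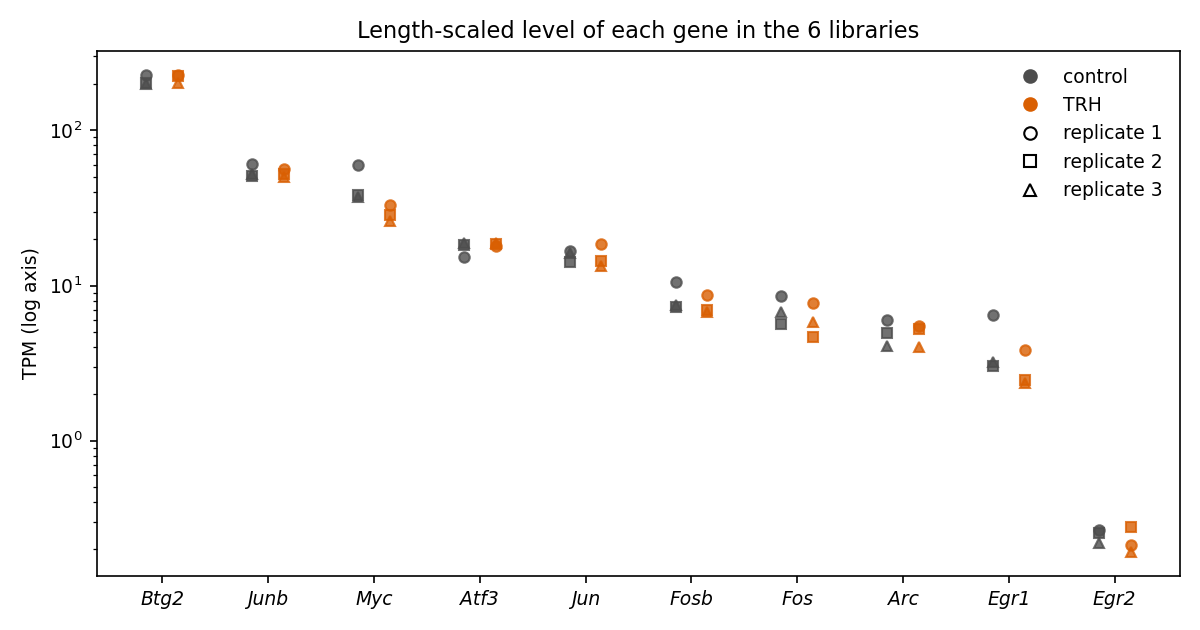
Length-scaled level of each immediate early gene (y axis, TPM as deposited, log axis) in the 3 control and 3 TRH libraries, ordered by the mean of all 6. Marker shape gives the replicate number. The genes run from Btg2 at 198 to 229 TPM down to Egr2 at 0.192 to 0.278 TPM, and control and TRH points lie close together for most genes.

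Ratios between related or contrasting members were also taken within each library. Junb was 3.04 to 3.76 times Jun on the TPM scale, with means of 3.48 ± 0.24 for controls and 3.48 ± 0.387 after TRH (SD, n = 3 each). Fosb was 1.12 to 1.49 times Fos. Egr1 was 8.88 to 24.5 times Egr2, a ratio that carries the counting error of the few Egr2 reads. Their promoter windows, printed above, share the placing of a CArG box and a short CRE motif. Btg2 was 3.80, 5.26 and 5.31 times Myc in controls and 6.92, 7.86 and 7.64 times with TRH. This last ratio does not overlap between groups. That follows from the CPM values, where every TRH library lay above the controls for Btg2 and below them for Myc. The ratio is therefore no separate result.

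Several members shared their ups and downs from library to library. Control replicate 1 was the highest library for 6 of 10 members (Fos, Fosb, Junb, Egr1, Arc and Myc) and for 31.2% of all genes tested. TRH replicate 2 was the lowest for 5 of 10 (Fos, Fosb, Jun, Egr1 and Myc) and for 10.6% of all genes. Fos, Fosb, Jun, Junb, Egr1, Arc and Btg2, 7 of 10 members, were above their own 6-library mean in replicate 1 of both groups, as were 25.6% of all genes. This counts direction only: in control replicate 1, Jun and Btg2 lay 0.026 and 0.021 above their means on the log2 scale. The labels do not tie equal replicate numbers to a shared day or culture. Fold changes without control replicate 1 stand beside Fos, Fosb, Egr1, Atf3 and Myc above.

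**Figure D4:**
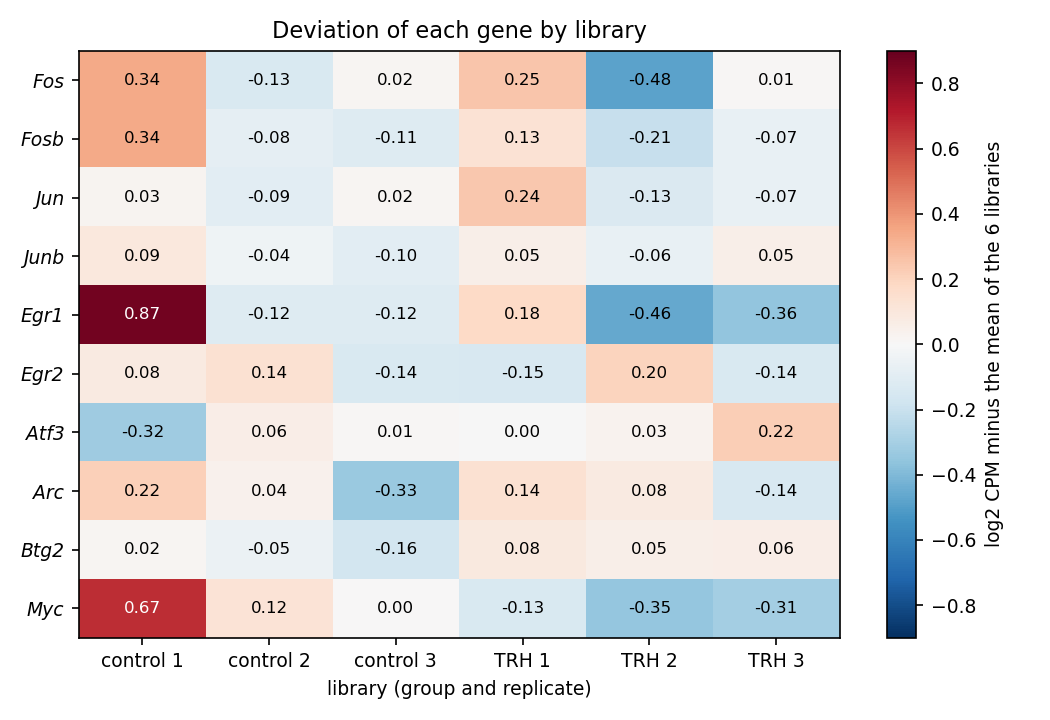
Deviation of each immediate early gene in each library (columns, group and replicate) from its mean over the 6 libraries, on the log2 CPM scale, red for higher and blue for lower. Egr1 (0.87) and Myc (0.67) stand out in control 1, where Atf3 is at -0.32, and Fos (-0.48) and Egr1 (-0.46) are low in TRH 2.

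The profile over the 6 libraries was most alike for Egr1 and Fosb, with a Pearson r of 0.96 on log2 CPM, given as a description. Without control replicate 1 the value for this pair was 0.87 over 5 libraries. Fos was most like Fosb (0.88, and 0.89 without control replicate 1), Junb was most like Fosb (0.82, and 0.72), and Jun was most like Fos (0.74, and 0.83). Myc was most like Egr1 at 0.91, which became 0.58 without control replicate 1. Arc and Btg2 were most like each other (0.68, and 0.74), and Egr2 was most like Arc (0.53, and 0.48). The closest member to Atf3 was Btg2, at 0.039, which became 0.30 without control replicate 1. Each closest value is the highest of a member's values with all other members. Of the 45 pairs of members, 17 had an r above 0.5, and the median was 0.21. The share among pairs of all genes tested was not computed, so this count cannot be read as a trait of these genes. These values share libraries, depth and the same 2 libraries that stand apart.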

How the data were processed

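RNA-seq of 6 GH3 libraries, 3 control and 3 TRH, was used as deposited. Per the submitters' processing notes the tools included HISAT2 and bedtools. For genome build, annotation, strand setting and counting rule: not given in the sources used here. Unscaled read counts for each Ensembl gene are the authors' first table, and a second deposited table adds a gene length, FPKM and TPM. Recomputing showed that the deposited FPKM are counts per kilobase of that length and per 1e6 counts of the library, and that the deposited TPM are FPKM rescaled to an equal total per library. Counts entered the tests, and TPM served for levels between genes.

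Genes were tested with edgeR 4.0.16 (R 4.3.3) by the quasi-likelihood F-test, with TMM scaling, filterByExpr, no replicate block and Benjamini-Hochberg adjustment over all 14050 genes kept, at 0.05. Standard errors came from the coefficient and its F value. CPM are TMM-scaled. For SDs and profiles, log2 CPM had a prior count of 2. Fits were tested on simulated data that held neither the length trend nor libraries that stand apart.

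Members and lists were chosen with earlier results of these data known. All members are named, with the symbols given with the identifier list, and for each the member most like it. The reference gene table (RefSeq, GRCr8) holds an Ensembl identifier in 0 of 47357 rows. Other immediate early genes and cell type markers, including those of GH3, were therefore not analysed here. Deposited lengths of the intronless genes Jun and Junb, 3089 and 1783 bases, stand beside RefSeq spans of 3094 and 1785. Whether libraries of one group stem from separate cultures is not in the labels, and p-values therefore reflect only how far these samples spread, possibly for technical reasons.

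Alternatives were DESeq2 1.42.0 (Wald test) and its size factors, limma 3.58.1 (voom, and log2 TPM with a pseudocount of 1 or 0.1), no filter, at least 1 CPM in 3 libraries, a replicate block, offsets for gene length (loess, span 0.5), each library left out in turn, and control replicate 1 and TRH replicate 3 left out together.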

Additional observations from a re-analysis of the deposited data

How the results depend on the processing

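In edgeR, 0 genes were called, with 1263 at an unadjusted p under 0.05. The number of genes called was 106 with DESeq2's Wald test, 0 to 1 with single libraries left out (1 without TRH replicate 3), 1 when control replicate 1 and TRH replicate 3 were dropped together, and 0 under the other alternatives. Members called stayed at 0, and members with an unadjusted p under 0.05 at 1, under every alternative run. Every alternative reuses libraries of the main fit, and the share of all genes at that p is given for the main fit only. Of 169 alternative fold changes of members, 146 kept their direction and 23 turned, none of them past the threshold. Limma on log2(TPM + 1) gave -0.0319 for Jun, -0.0395 for Junb and -0.0152 for Arc with and without the filter, and with a pseudocount of 0.1 it gave -0.0343, -0.0401 and -0.0172. Gene length offsets gave 0.0145 for Egr2, and without turning the direction moved Fosb from -0.10 to -0.0031, Jun from 0.042 to 0.11 and Arc from 0.038 to 0.10. With the same pair of libraries dropped, log2 fold changes were 0.069 for Fosb, 0.0165 for Egr1, 0.0318 for Egr2 and -0.0183 for Atf3. With single libraries left out they ran from -0.28 to 0.0515 for Fos, -0.18 to 0.0554 for Fosb, -0.063 to 0.11 for Jun, -0.0005 to 0.0825 for Junb, -0.19 to 0.0265 for Egr2 and -0.085 to 0.16 for Arc. The cause of these turns was not tested. Egr2 gave no value at 1 CPM in 3 libraries, and DESeq2 gave it no adjusted p. With 19 to 25 reads per library, counting limits Egr2.

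An edgeR fit with a replicate block called 0 genes and 0 members. Myc had the lowest p of the members in that fit, with a log2 fold change of -0.53 (edgeR unadjusted p = 0.00537, adjusted p = 0.561). Egr1 had a log2 fold change of -0.43 in it (edgeR unadjusted p = 0.0522, adjusted p = 0.577). Deviations of equal-numbered libraries correlated at 0.29, -0.26 and -0.12 for numbers 1, 2 and 3. These values cannot decide whether equal numbers share a day or culture, since no values for unequal numbers stand beside them. The main fit had no replicate block because the labels do not tie equal numbers together.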
